A study of Mus musculus with 11 samples.

Results

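Mitochondrial DNA is copied, coated, packaged and transcribed by proteins that are encoded in the nucleus, and 10 genes of that machinery were followed here: Polg, Polg2, Twnk, Tfam, Ssbp1, Polrmt, Tfb2m, Mgme1, Top1mt and Rnaseh1. They are listed by symbol and function, and each was found once among the 32287 features of the count tables. The question was whether Polg2 moves with its functional partners, across the cell types of brain vessels and microglia and across mice.

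The catalytic subunit of the mitochondrial DNA polymerase, encoded by Polg, is held on its template by the accessory subunit encoded by Polg2, while the Twinkle helicase opens the strands ahead of it and the single-stranded DNA-binding protein coats them. The mitochondrial RNA polymerase, with TFAM and TFB2M at its promoters, makes both the transcripts and the primers for replication. Brain endothelium is known for its high content of mitochondria among endothelia, and smooth muscle spends energy on contraction.

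Cells were released from brain microvessel fragments captured with CD31 antibodies and sequenced with a droplet method that counts unique molecular identifiers (UMIs) at the 3′ end of each transcript, so levels are compared between types and mice and not between genes. The 6 R182C-TgN3 mice, a model of the small vessel disease CADASIL, express human NOTCH3 bearing the R182C change from a transgene, and the 5 WT-TgN3 controls hold the transgene for unchanged human NOTCH3. All mice were untreated, and the promoter of the transgene was not given in the sources used here. Each mouse gave 1 library, of 17550806 to 64215050 UMIs.

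Of the R182C-TgN3 mice, 3 were 6 months old and 3 were 9 months old, with 4 females and 2 males in all. Of the WT-TgN3 mice, 3 were 6 months old and 2 were 9 months old, with 3 females and 2 males. By the batch label, batch 1 held 2 mice of each genotype at 9 months, batch 2 held R182C-TgN3 9 months replicate 3 alone, batch 3 held 2 of each genotype at 6 months, and batch 4 held 1 of each at 6 months. Age and batch therefore cannot be told apart.

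Cells were assigned by marker genes to endothelial cells (EC, 37331 cells), smooth muscle cells (SMC, 2178), pericytes (PC, 497) and microglia (MG, 14358), and the EC held 22674 capillary, 3625 arterial and 1550 venous cells. Fenestrated EC (1638 cells) were kept apart. A mouse entered a type with at least 20 cells, which left 10 mice for PC and for venous EC, since WT-TgN3 9 months replicate 2 had 18 and 19 such cells. The pooled level of the 10 endothelial markers summed to 15960 CPM in EC, where CPM is a gene's UMIs as a share of all UMIs of the mouse and type on the usual scale, that of the 10 smooth muscle markers to 37160 in SMC, that of the 8 pericyte markers to 20460 in PC and that of the 10 microglial markers to 14640 in MG. PC also held endothelial markers at a mean of 980.1 CPM, with Esam the most abundant at 312 CPM, and smooth muscle markers at 1698 CPM, with Myl9 the most abundant at 726.7 CPM. The level of the endothelial markers is set beside Polg2 below, and the smooth muscle part in the PC values was not tested.

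The member with the fewest UMIs over all mice had 1179 in EC, 300 in MG, 64 in SMC and 6 in PC, and in PC 8 members were at 0 in some mouse. Differences between groups in PC were therefore limited by depth. Of 65086 distinct cell barcodes, 966 occurred in more than 1 library, and 1500 of the kept and assigned cells carried such a barcode. The 15 pairs of libraries in batches 3 and 4 shared 62 to 350 barcodes each, the 6 pairs in batch 1 shared 6 to 38 and the other 34 pairs shared 5 to 28. Where results with and without these cells differed, the values are given there. Leaving these cells out also took WT-TgN3 9 months replicate 1 out of PC, at 19 cells in place of 21. For PC that setting therefore changed the mice as well as the cells. The log2 ratio of Polg2 to Polg in PC differed by −1.19 between the genotypes in that setting, and by −1.19 without that mouse alone. The looser gate brought WT-TgN3 9 months replicate 2 into PC (20 cells) and venous EC (98 cells), and the stricter gate (39 cells) and a minimum of 250 genes (27 cells) brought it into venous EC.

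Polg2, the accessory subunit of the polymerase, was far higher in EC than in the other types. Its level in EC was 46.2 CPM in the lowest of 11 mice, 72.8 at the median and 90.8 in the highest. In MG it ran from 17.0 through 26.55 to 42.1 CPM, and in SMC from 11.6 through 21.6 to 26.8 CPM. Every mouse's EC value lay above every mouse's MG and SMC value, so these types did not overlap. In PC the level ran from 0 through 19.0 to 46.1 CPM over 10 mice, with WT-TgN3 6 months replicate 1 at the top, just under the lowest EC value, and with R182C-TgN3 6 months replicate 3 at 0 in its 36 cells.

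Polg, the catalytic subunit, did not share that pattern. Its level ran from 20.3 through 22.5 to 27.3 CPM in EC, from 14.2 through 19.3 to 26.6 CPM in MG and from 18.4 through 25.8 to 37.4 CPM in SMC. All 3 types overlapped. In PC, Polg was at 14.9 CPM ± 12.7 (SD, n = 10), with no UMI in R182C-TgN3 6 months replicate 2 or WT-TgN3 6 months replicate 2.

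Between EC and MG of the same mice, 8 of the 10 members passed an adjusted p of 0.05 in edgeR, where 87.5% of the 12435 genes tested did, so the count of members was near the background. Of these 8, 4 were higher in EC and 4 were higher in MG, and the median log2 difference of the members was 0.10 against 0.09 for all genes. Polg2 was the member with the largest difference toward EC, at a log2 fold change of 1.36 (SE 0.08, adjusted p 4.7e-11), higher in EC in 11 of 11 mice. Polg was higher in EC by 0.18 (SE 0.07, adjusted p 0.0172), in 9 of 11 mice. Without WT-TgN3 9 months replicate 2 the Polg difference was 0.155 with an adjusted p of 0.0512.

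Between EC and SMC, 8 of 10 members passed, beside 76% of the 11832 genes tested. Only Polg2 and Rnaseh1 were higher in EC, and 6 members were higher in SMC, so that the members' median was −0.32 where that of all genes was 0.05. Polg2 was higher in EC by 1.64 (SE 0.08, adjusted p 1.6e-12), in 11 of 11 mice. Polg was lower in EC by the fit, at −0.35 (SE 0.10, adjusted p 0.00399), with the EC level higher in 4 of 11 mice. With the total UMIs of the cells as the scale in place of TMM factors, a setting added after the fitted values and CPM were seen to differ, the median of all genes moved by 0.23 in this comparison, and the share of calls that were higher in EC moved from 52.94% to 66.5%. Under that scale 4 of 10 members passed, beside 79.4% of all genes, Polg2 (1.875) and Rnaseh1 (0.56) as higher in EC and Twnk (−0.42, adjusted p 0.0168) and Mgme1 (−0.42, adjusted p 0.0110) as lower, while Polg did not (−0.12, adjusted p 0.277).

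Across all 9 partners, the EC to MG difference of Polg2 was larger than the partner's in 11 of 11 mice. In the comparison of EC with SMC it was larger in 11 of 11 mice for each partner but Top1mt, for which it was larger in 10. Against PC it was larger in 10 of 10 mice for each partner but Polg and Tfb2m, with 9 each. The range of mean levels over EC, SMC and MG was 1.80 on the log2 scale for Polg2, 0.49 for the median partner and 1.44 for the median of 13446 genes, so it was the partners that varied less than most genes, while Polg2 lay above the middle. Mgme1 had the widest range among the partners, 1.38, and Tfb2m the narrowest, 0.29.

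The log2 ratio of Polg2 to Polg UMIs, with 1 UMI added to each, depends on how well each 3′ end is captured, so its differences between types are read and not its size. It was 1.65 ± 0.360 (SD, n = 11) in EC, 0.478 ± 0.371 in MG and −0.392 ± 0.480 in SMC. EC exceeded MG by 1.17 and SMC by 2.04, each in 11 of 11 mice. The ratio was added after the levels were seen, so these values are a description, without a p. Without the shared barcodes the differences were 1.18 and 2.06.

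**Figure D1:**
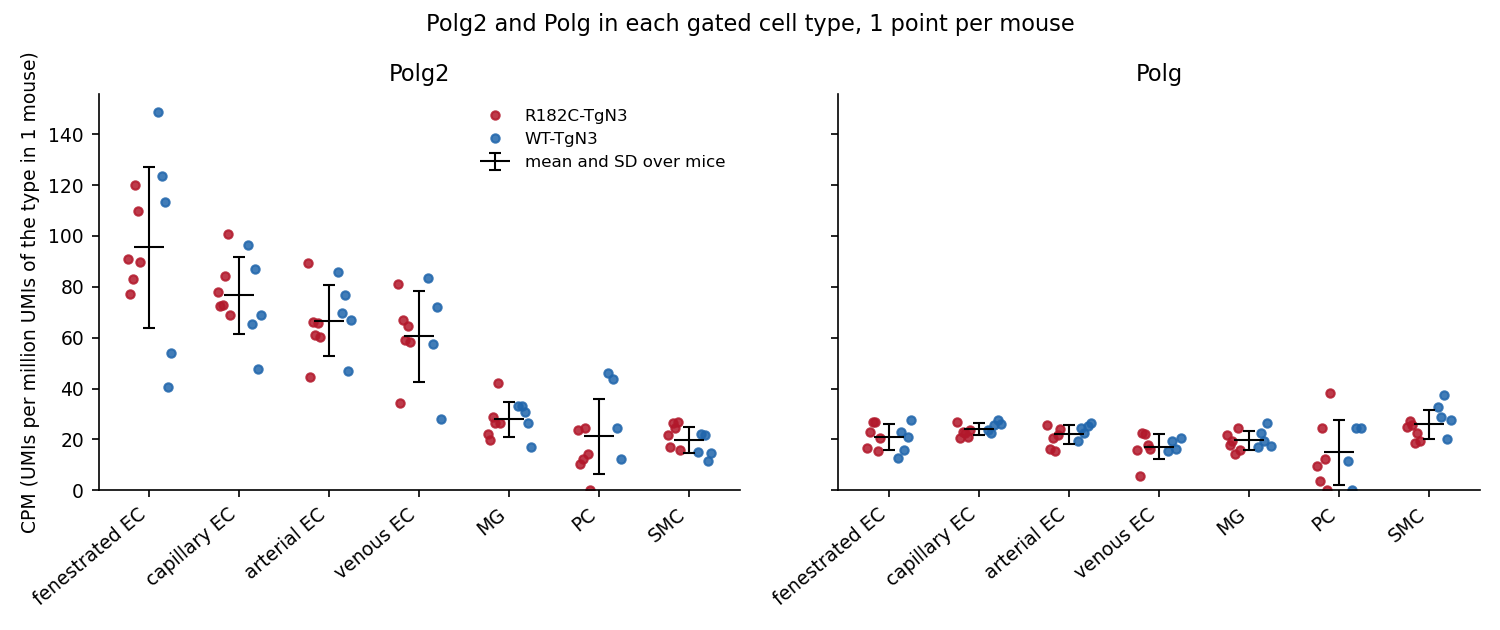
Polg2 and Polg in CPM in each cell type, with 1 point per mouse and the mean with its standard deviation. EC are drawn by kind and not pooled. Polg2 sits between 46.2 and 90.8 in the pooled EC and between 11.6 and 42.1 in MG and SMC. In the drawn kinds of EC it runs from 28.0 (venous EC, WT-TgN3 9 months replicate 1) to 148.6 (fenestrated EC, WT-TgN3 6 months replicate 1). The lowest of these points lie inside the MG range. Polg overlaps between pooled EC, MG and SMC.

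Twnk and Ssbp1, partners at the fork, went the other way from Polg2. Polg, as given above, was higher in EC than in MG and lower than in SMC by the fit. Twnk, the Twinkle helicase, was at 4.75 through 5.23 to 6.74 CPM in EC, at 8.35 through 9.23 to 12.1 CPM in MG and at 5.96 through 7.19 to 10.9 CPM in SMC. Ssbp1, the single-stranded DNA-binding protein, ran from 37.6 through 43.7 to 49.5 CPM in EC, from 44.7 through 60.3 to 69.2 CPM in MG and from 38.0 through 47.5 to 57.7 CPM in SMC. For Twnk the EC and MG values did not overlap, and the MG value of Ssbp1 was above the EC value within each mouse. The log2 difference of EC over MG was −0.94 for Twnk (SE 0.08, adjusted p 5.9e-09, EC higher in 0 of 11 mice) and −0.49 for Ssbp1 (SE 0.05, adjusted p 2.6e-08, 0 of 11). Against SMC, Twnk was at −0.65 (SE 0.15, adjusted p 8.0e-04, EC higher in 1 of 11) and Ssbp1 at −0.37 (SE 0.06, adjusted p 4.9e-05, EC higher in 2 of 11), a call that Ssbp1 lost by total UMIs at −0.13 (adjusted p 0.0742).

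Among the genes that finish the copied strands or relax and clear the template, Mgme1, a mitochondrial exonuclease that trims DNA ends, stood farthest from Polg2 in the EC to MG difference. It was at 9.51 through 10.7 to 12.9 CPM in EC, at 23.5 through 28.8 to 33.3 CPM in MG and at 7.19 through 11.7 to 22.8 CPM in SMC, so that every MG value lay above every EC and SMC value. Its log2 difference of EC over MG was −1.46 (SE 0.05, adjusted p 6.4e-15, 0 of 11) and of EC over SMC −0.65 (SE 0.14, adjusted p 3.5e-04, EC higher in 4 of 11). Top1mt, the mitochondrial topoisomerase, ran from 3.88 to 5.24 CPM in EC and from 4.66 to 7.94 CPM in MG, overlapping ranges, with a difference of −0.56 (SE 0.11, adjusted p 1.3e-04, EC higher in 2 of 11). Against SMC its difference of 0.08 did not pass (adjusted p 0.742). Rnaseh1, which removes RNA paired with DNA, was at 12.1 to 18.1 CPM in EC and 10.0 to 18.5 CPM in MG and did not pass between them (0.08, adjusted p 0.352). In SMC it ran from 4.12 to 15.8 CPM, and its difference of EC over SMC was 0.32 (SE 0.11, adjusted p 0.0147), EC being higher in 11 of 11 mice.

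Among the transcription and packaging genes, the range of mean levels over EC, SMC and MG was 0.49 on the log2 scale for Tfam, 0.76 for Polrmt and 0.29 for Tfb2m, beside 1.80 for Polg2. Tfam, which packages the mitochondrial genome and starts its transcription, ran from 22.5 to 26.1 CPM in EC, from 14.3 to 22.2 CPM in MG and from 12.9 to 32.6 CPM in SMC, so that EC lay above MG with no overlap. The log2 difference of EC over MG was 0.33 (SE 0.06, adjusted p 1.0e-04, 11 of 11). Tfb2m, a transcription initiation factor, ran from 20.02 to 24.4 CPM in EC and from 14.9 to 21.3 CPM in MG, with an overlap of the ranges, and its difference was 0.23 (SE 0.05, adjusted p 5.8e-04, 11 of 11). Polrmt, the mitochondrial RNA polymerase, was at 3.66 to 6.47 CPM in EC and 2.09 to 6.07 CPM in MG and did not pass between them (0.13, adjusted p 0.336).

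Against SMC, Tfam was at −0.29 (SE 0.08, adjusted p 0.00479, EC higher in 4 of 11) and Polrmt at −0.55 (SE 0.19, adjusted p 0.0133, EC higher in 5 of 11), and by total UMIs neither passed, at −0.05 (adjusted p 0.573) and −0.31 (adjusted p 0.131). Tfb2m did not pass at −0.07 (adjusted p 0.441), a direction that turned to 0.17 by total UMIs (adjusted p 0.0760). SMC values of Polrmt spread from 2.28 to 12.2 CPM, and are given by genotype below.

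**Figure D2:**
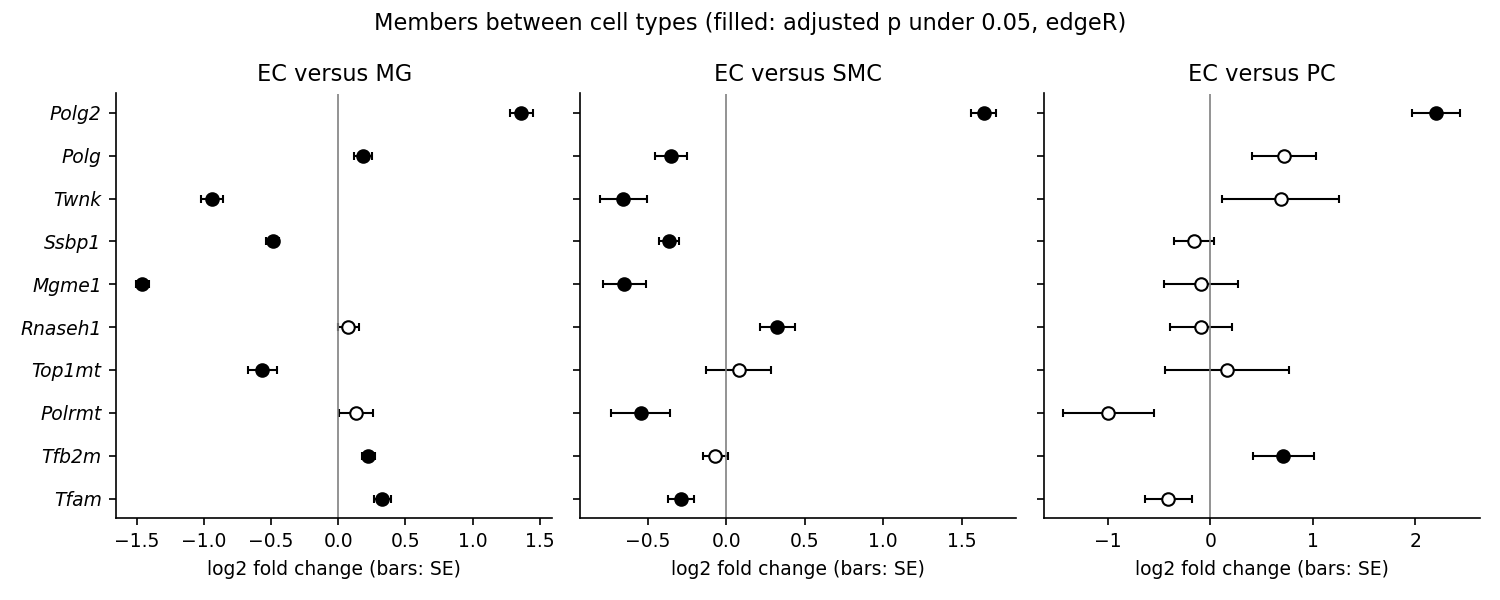
Log2 fold change of EC over MG, SMC and PC for each of the 10 members, with standard errors from edgeR and filled points for an adjusted p under 0.05. Polg2 stands apart at 1.36, 1.64 and 2.20, while Mgme1 reaches −1.46 against MG; scaling by total UMIs turns the sign of Tfb2m against SMC and of Top1mt against PC.

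PC held few UMIs of the members, and the comparisons with them rest on 10 mice. Between EC and PC, 2 of 10 members passed, Polg2 and Tfb2m, where 48.7% of 11227 genes did. Polg2 was higher in EC by 2.20 (SE 0.23, adjusted p 1.0e-10), in 10 of 10 mice. Tfb2m was higher by 0.71 (SE 0.30, adjusted p 0.0473), in 8 of 10 mice, and did not pass by DESeq2 (adjusted p 0.0676), by total UMIs (0.53, adjusted p 0.1502) or without the shared barcodes (adjusted p 0.0662, in 9 mice). Its adjusted p was 0.0605 without R182C-TgN3 9 months replicate 1, 0.0871 without replicate 3, 0.0686 and 0.0545 without R182C-TgN3 6 months replicates 1 and 2, 0.0683 and 0.0752 without WT-TgN3 6 months replicates 1 and 2, and 0.0502 without WT-TgN3 9 months replicate 1. Polg did not pass (0.72, adjusted p 0.0539) but did without R182C-TgN3 9 months replicate 3 (adjusted p 0.02), R182C-TgN3 6 months replicate 1 (0.04705) or 3 (0.0165), WT-TgN3 6 months replicate 3 (0.0397) or WT-TgN3 9 months replicate 1 (0.04525). The members called in EC versus PC were 3 without R182C-TgN3 6 months replicate 3 or WT-TgN3 6 months replicate 3, and 1 without R182C-TgN3 9 months replicate 1 or WT-TgN3 6 months replicate 2. With a mouse left out the calls over all genes ran from 5088 to 5487, beside 5473 with all 10 mice. Polrmt did not pass either (−0.99, adjusted p 0.0591) but did without R182C-TgN3 6 months replicate 2 (adjusted p 0.0467) or WT-TgN3 6 months replicate 1 (0.04), and by total UMIs it (−1.18, adjusted p 0.0258) and Tfam (−0.60, adjusted p 0.0299, beside −0.41 and 0.141 in the fit) were lower in EC. Top1mt was at 0.16 and turned to −0.02 by total UMIs, with no call in either.

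The remaining 3 comparisons of types set SMC, PC and MG against each other. Between SMC and MG, 7 of 10 members passed, beside 84.7% of 10623 genes. By DESeq2 6 members passed, beside 8809 genes called, where edgeR called 8996. Polg2 was lower in SMC by a log2 difference of −0.30 (SE 0.11, adjusted p 0.0163), with SMC higher in 0 of 11 mice, and the call was lost under a looser marker gate (−0.23, adjusted p 0.0601). Polg (0.53, adjusted p 1.2e-04, 9 of 11), Tfam (0.63, adjusted p 2.1e-05, 9 of 11) and Polrmt (0.69, adjusted p 0.00257, 9 of 11) were higher in SMC, and Mgme1 (−0.81, adjusted p 1.4e-06) and Top1mt (−0.66, adjusted p 0.00359) were lower in 11 of 11 mice each. Tfb2m was higher in SMC by 0.29 (adjusted p 0.0140, 8 of 11), a call lost by total UMIs (0.14, adjusted p 0.215), without WT-TgN3 6 months replicate 3 (adjusted p 0.0561) and without WT-TgN3 9 months replicate 1 (adjusted p 0.0560). Twnk (−0.26, adjusted p 0.109), Ssbp1 (−0.12, adjusted p 0.159) and Rnaseh1 (−0.24, adjusted p 0.143) did not pass, but did by total UMIs (adjusted p 0.0131, 0.00243 and 0.0170), and Twnk and Rnaseh1 did without R182C-TgN3 9 months replicate 1 (adjusted p 0.02805 and 0.0161).

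Between PC and MG, 4 of the 9 members tested passed, beside 66.2% of 9453 genes. Polg2 was lower in PC by the fit (−0.78, SE 0.28, adjusted p 0.0119), with PC lower in 7 of 10 mice, a call lost by total UMIs (−0.57, adjusted p 0.0758) and under a looser gate (−0.34, adjusted p 0.175). Twnk (−1.52, adjusted p 0.00911, PC lower in 8 of 10) and Mgme1 (−1.30, adjusted p 1.7e-04, PC lower in 9 of 10) were also lower in PC, and Tfam was higher (0.82, adjusted p 0.00228, 7 of 10). Between SMC and PC, 3 members passed the filter on low counts and 1 of them, Polg, was called, beside 55.6% of 5880 genes. Polg was higher in SMC by 0.99 (SE 0.32, adjusted p 0.00721), in 8 of 10 mice, and not called by total UMIs (0.73, adjusted p 0.0507), and without R182C-TgN3 9 months replicate 3 it was not tested, leaving 0 members called. Tfam was at −0.32 (adjusted p 0.273), lower in SMC by total UMIs (−0.58, adjusted p 0.0387), and Ssbp1 was at 0.06, which turned to −0.20 by total UMIs with neither called in the fit. Polg2 was not tested there and was higher in SMC in 5 of 10 mice.

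Each difference above is read against the middle of all genes, and scaling by total UMIs moved that middle by −0.19 between EC and PC, −0.26 between SMC and PC, −0.15 between SMC and MG and 0.21 between PC and MG. Of the calls over all genes, the share that was higher in EC than in PC went from 61.05% to 49.32%, and the share higher in SMC than in PC from 51.48% to 32.93%. The members' median was 0.04 between EC and PC (0.13 for all genes), −0.18 between SMC and MG (−0.01) and −0.51 between PC and MG (−0.07). Where tested, Polg2 kept its direction under both scales, with 2.02 for EC over PC, −0.46 for SMC over MG and −0.57 for PC over MG by total UMIs.

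Within the endothelium Polg2 was highest in fenestrated EC, 95.55 CPM ± 31.6 (SD, n = 11), followed by capillary EC, 76.6 ± 15.0 (n = 11), arterial EC, 66.6 ± 14.01 (n = 11), and venous EC, 60.5 ± 18.0 (n = 10). MG at 27.8 ± 6.99, PC at 21.2 ± 14.6 and SMC at 19.8 ± 5.20 completed the order. The places of PC and SMC are uncertain, since PC held 28 UMIs of Polg2. In the fits EC stood farther above PC (2.20) than above SMC (1.64), the reverse of that order. Arterial and venous EC were neighbours that did not differ past the threshold (0.11, SE 0.07, adjusted p 0.238, arterial higher in 9 of 10). Capillary and arterial EC did not pass either (0.14, SE 0.07, adjusted p 0.0771, capillary higher in 9 of 11), but did by total UMIs (0.16, adjusted p 0.0454), without R182C-TgN3 9 months replicate 1 (0.20, adjusted p 0.0139) and without WT-TgN3 6 months replicate 2 (0.16, adjusted p 0.0496). For Polg2 in capillary EC versus arterial EC without a filter on low counts the values were 0.16 and adjusted p 0.0329, while without R182C-TgN3 9 months replicate 2 they were 0.08 and 0.248, and under the stricter gate 0.05 and 0.374. PC and SMC were not tested by the filter, and venous EC were not compared with MG directly.

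Capillary EC were lower than fenestrated EC in Polg2 (−0.25, SE 0.10, adjusted p 0.0408), with the fenestrated value higher in 9 of 11 mice. The adjusted p was 0.0608 and 0.0658 without R182C-TgN3 6 months replicates 1 and 3, 0.0968, 0.152 and 0.0728 without WT-TgN3 6 months replicates 1, 2 and 3, and 0.0597 by DESeq2. For Polg2 in capillary EC versus fenestrated EC the log2 difference was −0.16 without WT-TgN3 6 months replicate 2, −0.37 without WT-TgN3 9 months replicate 2 (adjusted p 8.8e-04) and −0.20 without a filter on low counts (adjusted p 0.1195), so that this neighbour difference was not held by every library. In this comparison 5 of 10 members passed, beside 53.1% of 10702 genes. Tfam (0.36, adjusted p 0.00828, 9 of 11), Ssbp1 (0.40, adjusted p 0.00348, 9 of 11) and Tfb2m (0.43, adjusted p 0.0155, 8 of 11) were higher in capillary EC, opposite to Polg2. Tfb2m was not called without R182C-TgN3 9 months replicate 1 (adjusted p 0.0542). Top1mt was higher in fenestrated EC (−0.54, adjusted p 0.0360, 9 of 11) and was not called without R182C-TgN3 9 months replicate 1 (adjusted p 0.0632) or 3 (0.0792), R182C-TgN3 6 months replicate 1 (0.0561) or 3 (0.0735), or WT-TgN3 6 months replicate 2 (0.0597) or 3 (0.0694).

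Between capillary and arterial EC, 3 of 10 members passed, beside 57.8% of 10861 genes. Twnk (0.45, SE 0.16, adjusted p 0.0171, 10 of 11) and Tfb2m (0.23, SE 0.07, adjusted p 0.00832, 8 of 11) were higher in capillary EC, and Rnaseh1 was lower (−0.28, SE 0.09, adjusted p 0.00951, 8 of 11). The Twnk call was lost under a looser gate (0.26, adjusted p 0.0853). Between capillary and venous EC, 2 of 10 passed, beside 41.3% of 10526 genes, and these were both polymerase subunits. Polg was higher in capillary EC by 0.38 (SE 0.12, adjusted p 0.0114, 10 of 10), a call lost under a looser gate (0.12, adjusted p 0.176), and Polg2 by 0.24 (SE 0.08, adjusted p 0.0131, 9 of 10). Tfam did not pass at −0.25 (adjusted p 0.0529), but did without R182C-TgN3 6 months replicate 2 (adjusted p 0.0313) or WT-TgN3 6 months replicate 3 (adjusted p 0.0428). Between arterial and venous EC, 1 of the 7 members tested passed, beside 47.6% of 9062 genes, Rnaseh1 at 0.51 (SE 0.14, adjusted p 0.00488, arterial higher in 9 of 10). With the cells of highest UMIs left out 0 members passed, so that this call was lost. Polg was at 0.29 (adjusted p 0.0855) and passed without R182C-TgN3 6 months replicate 1 (adjusted p 0.0261) and without the shared barcodes (adjusted p 0.0284), which made 2 members.

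The comparison of the genotypes asked whether the R182C change goes with a different level of these genes in each type but fenestrated EC. Those were not tested by genotype. At 9 months, Polg2 in fenestrated EC was at 90.8, 77.3 and 82.9 CPM in R182C-TgN3, beside 40.8 and 54.1 in WT-TgN3. At 6 months it was at 120, 110 and 89.7 CPM in R182C-TgN3, beside 148.6, 123.5 and 113.4 in WT-TgN3. In EC, Polg2 was at 78.7, 69.3 and 72.8 CPM in the R182C-TgN3 mice of 9 months and at 74.9, 90.8 and 66.9 CPM in those of 6 months. The WT-TgN3 mice were at 88.0, 67.5 and 85.1 CPM at 6 months and at 46.2 and 67.4 CPM at 9 months. The genotypes overlapped, with WT-TgN3 9 months replicate 1 as the lowest mouse and R182C-TgN3 6 months replicate 2 as the highest. In MG, R182C-TgN3 mice had 22.2, 19.8 and 28.7 CPM at 9 months and 26.55, 42.1 and 26.4 CPM at 6 months, beside 33.3, 33.2 and 30.6 CPM at 6 months and 26.3 and 17.0 CPM at 9 months in WT-TgN3. In SMC, R182C-TgN3 mice had 21.9, 17.1 and 26.6 CPM at 9 months and 24.5, 26.8 and 15.8 CPM at 6 months, beside 15.0, 22.2 and 21.6 CPM at 6 months and 11.6 and 14.6 CPM at 9 months in WT-TgN3. For every member and type the ranges of the genotypes overlapped.

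Of the members past the filter on low counts, none passed between the genotypes by edgeR or by DESeq2 in the 6 types where members were tested, and 0 had an unadjusted p under 0.05 by edgeR. All 10 members were tested in EC (0 called, beside 0% of 13081 genes by edgeR, with 189 genes at an unadjusted p under 0.05 by edgeR and 0 genes called by DESeq2), capillary EC (0 called, beside 0% of 12085, with 250 at that p and 0 called by DESeq2) and MG (0 called, beside 0% of 11006, with 157 at that p and 0 called by DESeq2). In arterial EC 9 were tested, without Twnk (0 called, beside 0% of 9764 genes, with 185 at that p and 0 called by DESeq2). In venous EC 7 were tested, without Twnk, Polrmt and Top1mt (0 called, beside 0% of 8599, with 348 at that p and 1 called by DESeq2). SMC left out the same 3 (0 called, beside 0.0115% of 8685, that is 1 gene, with 239 at that p and 1 called by DESeq2). In PC no member passed the filter (0.0467% of 2140 genes called, 1 gene, with 123 at that p and 1 called by DESeq2).

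Polrmt in SMC, which that filter left out, was at 4.45, 5.08 and 2.28 CPM in R182C-TgN3 mice of 9 months and at 3.50, 6.19 and 4.395 CPM in those of 6 months, from 3 to 11 UMIs per mouse. In WT-TgN3 it was at 12.2, 5.93 and 7.19 CPM at 6 months and at 8.80 and 8.03 CPM at 9 months, from 5 to 31 UMIs. Only R182C-TgN3 6 months replicate 2 and WT-TgN3 6 months replicate 2 lay in the overlap of the genotypes. In the edgeR fit without the filter its log2 difference of R182C-TgN3 over WT-TgN3 was −0.90 (SE 0.33, unadjusted p 0.00997, adjusted p 0.899). That fit called 0 of 10 members in each of the 7 types, and Polrmt in SMC was the 1 member with an unadjusted p under 0.05.

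The log2 difference of R182C-TgN3 over WT-TgN3 for Polg2 was 0.14 in EC (SE 0.14, p 0.316, edgeR; 0.02 without WT-TgN3 9 months replicate 1), 0.18 in capillary EC, −0.03 in arterial EC, 0.06 in venous EC and −0.00 in MG. Without that mouse it was 0.05 in capillary EC, −0.16 in arterial EC and −0.12 in venous EC, and without WT-TgN3 9 months replicate 2 it was −0.15 in MG, none of them called. Among these types, where Polg2 passed the filter, it was largest in SMC, 0.40 (SE 0.22, unadjusted p 0.0871, adjusted p 1.00, edgeR), with group means of 22.1 CPM ± 4.745 (SD, n = 6) and 17.0 ± 4.64 (n = 5). Without WT-TgN3 9 months replicate 1 the SMC difference was 0.20, and without WT-TgN3 6 months replicate 2 it was 0.63. For Polg2 by genotype in SMC it was 0.15 under the looser gate and 0.22 with the cells of highest UMIs left out. In PC, in the fit without the filter, it was −1.08 (SE 0.65, unadjusted p 0.0955, adjusted p 0.776), from 28 UMIs of Polg2. The members' median was 0.06 in EC, 0.11 in SMC and 0.03 in MG, beside 0.01, −0.00 and 0.01 for all genes. Scaling by total UMIs turned the direction of Ssbp1, Tfb2m and Mgme1 in EC, of Twnk, Ssbp1 and Tfb2m in capillary EC, of Tfam in arterial EC and of Ssbp1, Polrmt and Rnaseh1 in MG, none of them called.

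Whether the genotype difference changes with age was tested by the interaction of genotype and age. No member was called in EC (0 of 10, beside 0% of 13823 genes by edgeR, with 362 genes at an unadjusted p under 0.05 by edgeR and 1 gene called by DESeq2) or in MG (0 of 10, beside 0% of 11642, with 275 at that p and 1 called by DESeq2). Polg2 in EC was the member with an unadjusted p under 0.05, at 0.48 (SE 0.21, p 0.0421, adjusted p 1.00, edgeR), and this was 0.24 without WT-TgN3 9 months replicate 1 and 0.77 without replicate 2. The genotype difference did not pass as different between EC and MG for any member (0 of 10, beside 0% of 13195 genes by edgeR, with 331 at an unadjusted p under 0.05 by edgeR and 0 called by DESeq2).

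The Polg2 to Polg ratio in SMC is described by genotype without a p, since the comparison was added after the group means of the ratio were seen. It was −0.17, −0.66 and 0.0406 in R182C-TgN3 at 9 months and 0.40, 0.22 and −0.28 at 6 months, beside −1.06, −0.38 and −0.75 in WT-TgN3 at 6 months and −0.78 and −0.89 at 9 months. R182C-TgN3 9 months replicate 2 lay inside the WT-TgN3 range, and the other R182C-TgN3 mice lay above it. The difference of the means was 0.70, and 0.42, 1.03 and 0.48 in batches 1, 3 and 4. It was 0.399 under a looser gate and 0.385 with the cells of highest UMIs left out. In EC the ratio differed by 0.26 (0.07 without WT-TgN3 9 months replicate 1), and by 0.614, 0.181 and −0.219 in batches 1, 3 and 4. In MG it differed by 0.10. In PC it differed by −0.74 (1.585, −1.03 and −2.585 in batches 1, 3 and 4), and by −1.19 without the shared barcodes, which also took out WT-TgN3 9 months replicate 1. With a mouse left out the MG difference ran from −0.0142, without WT-TgN3 9 months replicate 2, to 0.231, without WT-TgN3 6 months replicate 1, and that of PC from −1.19, without WT-TgN3 9 months replicate 1, to −0.22, without R182C-TgN3 6 months replicate 3.

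Across the 11 mice no partner passed the permutation test with Polg2 in EC or in MG, while Polg in MG had r 0.268 over all mice and 0.9095 with batch means removed (10 mice). The median Pearson r of Polg2 with the 9 partners was 0.189 in EC, beside 0.00802 for all genes, and without WT-TgN3 9 months replicate 1 it was −0.305. Polg, the other subunit, had r −0.497 and rho −0.309 with Polg2 in EC (permutation p 0.114, adjusted p 0.585 over 13080 genes), 0.0364 without the 2 mice farthest in Polg2, −0.321 with batch means removed, and −0.310 and −0.314 in batches 1 and 3 (4 mice each). The lowest was Twnk, with r −0.632 and rho −0.455 (permutation p 0.0309, adjusted p 0.429), −0.1701 without the 2 farthest mice, −0.668 with batch means removed, and −0.735 and −0.650 in the same batches. Polrmt had r −0.608 and rho −0.418 (permutation p 0.04995, adjusted p 0.476), −0.3985 without the 2 farthest mice, and −0.847 and 0.913 in the same batches. The highest was Tfam, with r 0.332 and rho −0.100 (permutation p 0.290, adjusted p 0.731), which turned to −0.363 without the 2 farthest mice. In EC 0 genes passed this permutation test, 0% of 13080, with 1373 at an unadjusted p under 0.05.

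In MG the median r with the partners was 0.268, beside 0.0195 for all genes and −0.0441 without the 2 farthest mice, R182C-TgN3 6 months replicate 2 and WT-TgN3 9 months replicate 2. No partner passed, beside 1.79% of 11005 genes by r, where 0 genes passed by rho and 1971 had an unadjusted p under 0.05 by rho. Ssbp1 was the partner nearest to Polg2, with r 0.570 and rho 0.4455 (permutation p 0.0665, adjusted p 0.288), 0.558 without the 2 farthest mice, 0.132 with batch means removed, and 0.581 and −0.397 in batches 1 and 3. Polg had r 0.268 and rho 0.218 (permutation p 0.425, adjusted p 0.690), −0.0441 without the 2 farthest mice, 0.9095 with batch means removed, and 0.934 and 0.911 in batches 1 and 3. Partners from Mgme1, at −0.393, to Ssbp1 lay on both sides of 0. Milr1, the gene that overlaps the 3′ end of Polg2, had r 0.872 and rho 0.782 (permutation p 0.00048, adjusted p 0.0416, with 0.134 for rho), 0.726 without the 2 farthest mice, 0.779 with batch means removed, 0.443 in batch 1 and 0.957 in batch 3 (4 mice each). Batches 2 and 4 held too few mice for a value.

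**Figure D3:**
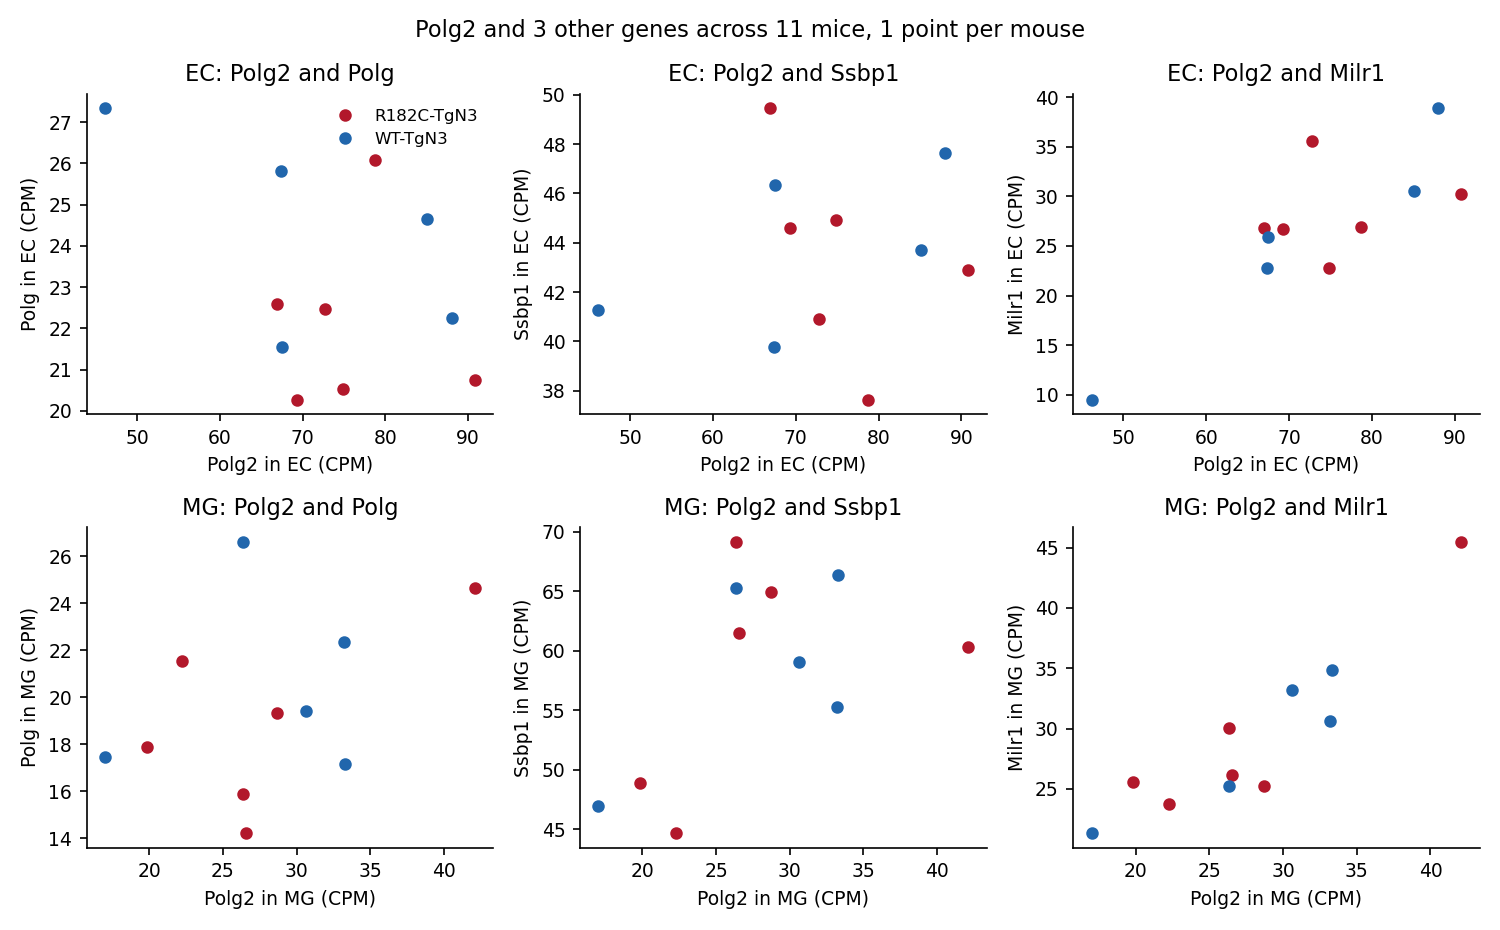
Polg2 against Polg, Ssbp1 and Milr1 over the 11 mice in EC and in MG, drawn in CPM with 1 point per mouse. The values of r were taken on log2 CPM. Over all mice r was −0.497 in EC and 0.268 in MG for Polg, and 0.872 in MG for Milr1; with batch means removed it was −0.321 in EC and 0.9095 in MG for Polg, and 0.779 in MG for Milr1.

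The 5 genes most like Polg2 across mice were Ssx2ip (r 0.928), Myo1h, Bmerb1, Milr1 and Pcdhb4 (r 0.909) in EC, with adjusted p of 0.305 to 0.324, and Abcg2 (r 0.955), Rbm19, Fyco1, Fndc7 and Prr5l (r 0.932) in MG, with adjusted p of 0.03415 to 0.0378. Without the 2 farthest mice their r was 0.325 to 0.722 in EC and 0.833 to 0.9705 in MG. Over the mean levels of the 7 types, a description of 7 points that share libraries, the most alike of 13445 genes were Arhgef3 (r 0.997), Cpd, Mcc, Rai14 and Gbp7 (r 0.989). The 9 partners had a median of −0.190 on that measure, beside −0.0163 for all genes, and ran from −0.703 for Ssbp1 to 0.210 for Rnaseh1. Over the 6 types without PC these medians were 0.130 and 0.260, Tfam, Polrmt, Tfb2m and Top1mt turned positive (0.193, 0.130, 0.314 and 0.260) and Rnaseh1 reached 0.8503. None of the 9 partners was among the 5 genes most like Polg2 in EC, in MG or over the types.

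Microglia with at least 1 UMI of Nfe2l3, a transcription factor gene that is not a member, (1018 cells) were set against the remaining 13340 within each mouse, to ask whether the partners go with Polg2 in those cells. That Polg2 goes with Nfe2l3 in these cells was known beforehand, so its level is a description: 69.5 CPM beside 24.5. Of the 9 members tested 1 was called, Polg2, beside 0.959% of 8965 genes. The 8 partners tested ran from −0.18 to 0.26, for Tfb2m, with 0 called by edgeR or DESeq2 and 0 at an unadjusted p under 0.05, and Polrmt did not pass the filter. All 13 mRNAs encoded in mitochondrial DNA were also not called there by edgeR, with 2 at an unadjusted p under 0.05 and a median log2 difference of 0.00.

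Other nuclear genes that serve the mitochondrial genome differed between EC and MG in either direction, as did all genes, of which 87.5% passed, 46.8% as higher in EC and 40.7% as lower. Of 10 further genes of replication, repair and the nucleoid, 1 was higher in EC, the protease subunit gene Clpx (0.32), and 7 were lower, among them the repair nuclease gene Apex1 (−1.85), the primase gene Primpol (−1.72) and the topoisomerase gene Top3a (−1.31). Of 9 further transcription genes 3 were higher, led by Mterf2 (5.61) and the RNA-stabilising Slirp (0.73), and 5 lower, with Mterf1b (−0.95), Tefm (−0.83) and Lrpprc (−0.82). Of 12 genes tested for nucleotide supply, out of 13 listed, 7 were higher, with the ADP/ATP carrier gene Slc25a4 (1.09), Samhd1 (1.08) and Sucla2 (1.02), and 5 lower, with the thymidine kinase gene Tk2 (−2.79). Of 6 membrane dynamics genes 4 were higher, with the mitofusin genes Mfn1 (1.225) and Mfn2 (1.04), and Fbxl4 was lower (−0.60). Of 8 regulators of mitochondrial biogenesis 2 were higher, Ppargc1a (3.44) and Gabpa (0.25), and 6 lower, led by Ppargc1b (−3.25). The medians of these 5 lists were −0.875, −0.26, 0.55, 0.48 and −0.86, beside 0.09 for all genes. By total UMIs 3 replication, repair and nucleoid genes were higher, Atad3a (0.19) and Lonp1 (0.16) besides Clpx, and 4 nucleotide supply genes were lower, without Dguok (−0.03), and the counts of the other 3 lists were as above.

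Between EC and SMC the same lists split too, and some calls changed with the scale. Of all genes 76% passed, 40.3% as higher in EC and 35.8% as lower. Of the 10 replication, repair and nucleoid genes 3 were higher in EC, Dna2 (0.85), Top3a (0.67) and Exog (0.59), and 2 lower, Lonp1 (−0.38) and Clpx (−0.35), neither of which passed by total UMIs (adjusted p 0.216 and 0.111). Of the 9 transcription genes Mterf2 was higher (0.32) and 3 were lower, Tefm (−1.01), Slirp (−0.25) and Lrpprc (−0.20), of which Slirp did not pass by total UMIs and Lrpprc turned to 0.03. Nucleotide supply had 3 higher, led by Samhd1 (1.21), and 5 lower, led by Slc25a4 (−2.29), Suclg1 (−1.04) and Sucla2 (−0.95). In membrane dynamics Mfn1 (0.40) and Msto1 (0.35) were higher and Mfn2 (−2.14), Opa1 (−0.24) and Dnm1l (−0.21) lower, the last turning to 0.03 by total UMIs, where Opa1 also did not pass. Of the biogenesis regulators 4 were higher, with Gabpb1 (0.92), Nrf1 (0.59) and Yy1 (0.24), and 4 lower, with the coactivator genes Ppargc1b (−6.89) and Ppargc1a (−2.425) and the nuclear receptor gene Esrra (−1.60). The medians were 0.21, −0.20, −0.05, 0.01 and −0.11, beside 0.05 for all genes. By total UMIs 5 replication, repair and nucleoid genes were higher and 0 lower, 1 transcription gene higher and 1 lower, 6 nucleotide supply genes higher and 3 lower, 3 membrane dynamics genes higher and 1 lower, and 4 biogenesis regulators higher and 3 lower. Over all genes 79.4% passed on that scale, 6245 as higher in EC and 3146 as lower, beside 4763 and 4234 with TMM factors, so the move toward EC was one of all genes.

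Between EC and PC, where 48.7% of 11227 genes passed, the same lists had 0 of 10, 1 of 8, 2 of 12, 1 of 6 and 1 of 8 genes tested higher in EC, and 1, 1, 2, 0 and 2 lower. By total UMIs, where 49.5% of all genes passed, 0, 0, 2, 0 and 1 were higher and 1, 2, 5, 1 and 3 lower. In the edgeR fit the lists had medians of 0.48, −0.21, −0.12, −0.02 and −0.22 beside 0.13 for all genes, and Ppargc1b was again lowest in EC (−6.85, adjusted p 3.1e-23, 10 of 10). In the comparisons of genotype and their interactions, 0 genes of these 5 lists were called by edgeR, with 6 of 377 tests at an unadjusted p under 0.05 and 0 called by DESeq2.

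The messenger RNAs that the mitochondrial genome itself encodes did not follow Polg2 across types. The share of all UMIs from its 13 protein-coding genes was highest in SMC and lowest in MG in every mouse. Cells with more than 10% of UMIs from mitochondrial genes had been left out, and this cap limits the share in the kept cells. The SMC values lie nearest to the cap, so the sizes of the differences between types and genotypes hold for the kept cells only. In EC the share was 3.54% ± 0.172 (SD, n = 6) in R182C-TgN3 and 3.44% ± 0.221 (n = 5) in WT-TgN3, and the genotypes overlapped (exact permutation p 0.403). In SMC it was 7.11% ± 0.247 and 7.20% ± 0.394 (exact permutation p 0.660), and in MG 1.76% ± 0.241 and 1.82% ± 0.369 (exact permutation p 0.732). The differences of R182C-TgN3 over WT-TgN3, −0.0892 and −0.0638 percentage points, turned to 0.0559 in SMC without WT-TgN3 6 months replicate 3 and to 0.0930 in MG without WT-TgN3 6 months replicate 2. With all genes kept, the 13 genes were all higher in EC than in MG (0.45 to 1.23, median 0.77, beside 87.73% of genes called and a median of 0.05) and all lower than in SMC (−1.81 to −0.61, median −1.18, beside 75.32% and 0.06). None was called between the genotypes by edgeR in EC, SMC or MG, with 0 at an unadjusted p under 0.05.

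In PC the share was 3.89%, 3.99% and 3.59% in R182C-TgN3 mice of 9 months and 4.49%, 3.67% and 3.975% in those of 6 months, beside 3.395%, 3.41% and 3.83% in WT-TgN3 at 6 months and 3.446% at 9 months. The WT-TgN3 6 months replicate 3 value lay inside the R182C-TgN3 range and the other WT-TgN3 values below it. The difference was 0.414 percentage points (exact permutation p 0.0429, 0.171 adjusted over 4 tests), so it failed the correction. With mice permuted within batches the exact permutation p was 0.0556. The difference itself was 0.495, 0.678 and 0.141 percentage points in batches 1, 3 and 4. Without the shared barcodes p was 0.107 in 9 mice, as it was without WT-TgN3 9 months replicate 1, the mouse that this setting took out. Leaving out a mouse moved the mitochondrially encoded share by genotype in PC past 0.05 for 7 of 10 mice: exact permutation p was 0.0714 without R182C-TgN3 9 months replicate 1, 0.0794 without replicate 2, 0.0635 and 0.0714 without R182C-TgN3 6 months replicates 1 and 3, 0.119 without WT-TgN3 6 months replicate 1 and without replicate 2, and 0.107 without WT-TgN3 9 months replicate 1.

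**Figure D4:**
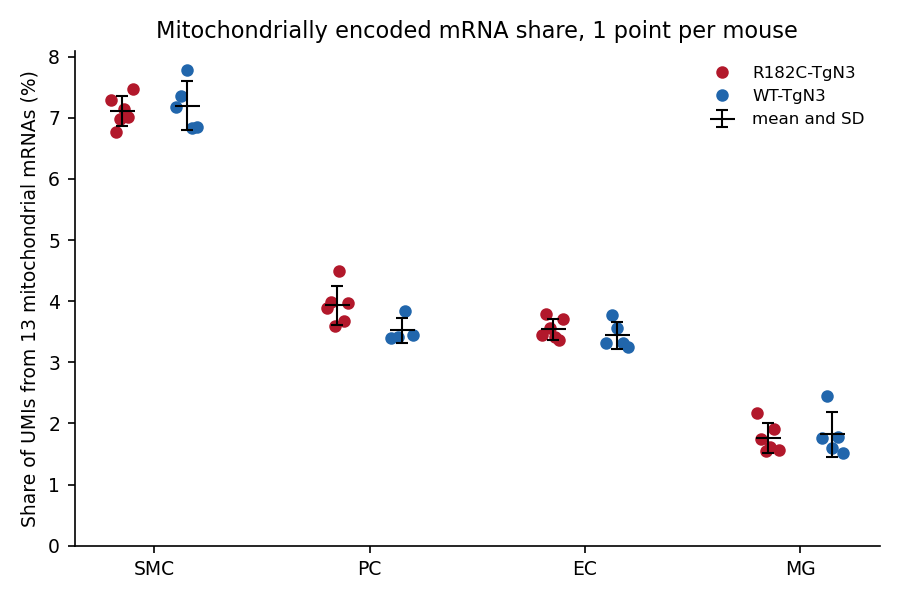
Share of all UMIs, in percent, from the 13 protein-coding genes of mitochondrial DNA in each cell type, by genotype, with 1 point per mouse and the mean with its standard deviation. SMC lie near 7.15% and MG near 1.79%, and the genotypes overlap in each type. Cells with more than 10% of UMIs from mitochondrial genes had been left out.

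Endothelial RNA in other types was described by the summed level of the 10 endothelial markers in each mouse, none of which was at 0 in any type. The same markers had assigned the cells, and cells with a close second class were left out. The sum in the kept cells is therefore limited by the gate, and it cannot bound the endothelial part of Polg2. The sum was 111.9 CPM in the lowest mouse, 193.1 at the median and 276.6 in the highest in MG, 201.1 through 271.7 to 578.9 in SMC, 750.9 through 963.6 to 1310 in PC and 15070 through 15840 to 17660 in EC. The MG sum was 1.20% of that of EC, a share that would carry 0.889 CPM of Polg2, where 27.8 were measured. For SMC it was 1.96%, or 1.46 CPM beside 19.8 measured, and for PC 6.09%, or 4.51 CPM beside 21.2, with the measured value above that level in 9 of 10 mice. The most abundant marker was Eng in MG (52.6 CPM) and Esam in SMC (138 CPM). Microglia with and without Nfe2l3 held these markers at 1.23% and 1.20%. Across mice the MG sum and Polg2 had r 0.591 and rho 0.536 (permutation p 0.0559 and 0.0941), 0.0144 without the 2 farthest mice, 0.282 with batch means removed, and 0.946 and −0.420 in batches 1 and 3.

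The members lie on 9 chromosomes in the GRCm38 build, with coordinates from GENCODE vM21, and all 10 gene identifiers matched those of the count tables. Polg2 (ENSMUSG00000020718) is at chr11:106768253-106779537 on the minus strand, with Ddx5 817 bases upstream on the same strand. Its last 542 bases overlap Milr1 on the opposite strand, 132 of them exonic in both, at the 3′ end where molecules are counted. Whether reads from introns or the other strand were counted was not given in the sources used here, so the part of Milr1 in Polg2 counts is uncertain. Milr1 did not pass between EC and MG (−0.19, adjusted p 0.136, and 0.0304 without R182C-TgN3 9 months replicate 3), where Polg2 was higher in EC by 1.36, and Ddx5 was lower in EC (−1.25). In the comparisons that follow, the direction of Milr1 was that of Polg2. It was higher in the microglia with Nfe2l3 than in the others (0.92, 10 of 11). That value is a description, since Milr1 was listed with the microglial cluster genes when earlier results of these data were known. It was higher in EC than in SMC (2.97, adjusted p 4.5e-12, 11 of 11) and PC (2.88, adjusted p 3.4e-07, 9 of 10), and higher in capillary than in arterial EC (0.63, 11 of 11) and venous EC (0.69, 10 of 10), with 20.6 to 41.5 CPM as the mean in the kinds of EC, 29.2 in MG, 5.495 in PC and 2.99 in SMC. By the mean fenestrated EC held the most, in 8 of 11 mice more than capillary EC, a difference that did not pass (−0.16, adjusted p 0.492). Over the mean levels of the 7 types its r with Polg2 was 0.692, and across mice in EC it was 0.913 (adjusted p 0.324).

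Polg (ENSMUSG00000039176, chr7:79446231-79466362, minus) overlaps Fanci over 4034 bases, Twnk (ENSMUSG00000025209, chr19:45005663-45012762, plus) overlaps Mrpl43 over 780, Mgme1 (ENSMUSG00000027424, chr2:144270663-144281227, plus) overlaps Snx5 over 244, Tfb2m (ENSMUSG00000026492, chr1:179528055-179546267, minus) overlaps a pseudogene over 519 and Top1mt (ENSMUSG00000000934, chr15:75657035-75678800, minus) overlaps an antisense transcript over 2123, all on opposite strands. Of these 5 overlaps that of Polg lies at the 3′ end of the member, as in Polg2, and its counts carry the same uncertainty. Those of Twnk and Mgme1 lie at the 5′ end, and those of Tfb2m and Top1mt inside the gene. Tfam (ENSMUSG00000003923, chr10:71225464-71238280, minus), Ssbp1 (ENSMUSG00000029911, chr6:40471352-40484700, plus), Polrmt (ENSMUSG00000020329, chr10:79736123-79746581, minus) and Rnaseh1 (ENSMUSG00000020630, chr12:28649602-28659589, plus) overlap no other annotated gene.

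Promoters of 300 bases, from 250 before to 50 after the start, were taken from RefSeq (GRCm38.p6) for the 8 members with an entry, Top1mt and Rnaseh1 being named only. The letters searched on both strands were GCGCATGCG (NRF1), CCGGAAG (ETS), AAGATGGCG (YY1) and GGGCGG (Sp1), held by 1.75%, 8.86%, 1.40% and 35.7% of 32851 promoters. Of the 8 members, 1 held the NRF1 letters (Tfb2m), 6 the ETS letters (Polg, Polg2, Tfam, Ssbp1, Polrmt and Twnk, in 1 of its 2 entries), 1 the YY1 letters (Mgme1) and 5 the Sp1 letters (Twnk again in the same entry alone), with a median GC content of 58.7% beside 52.7% for all promoters. The polymerase subunits, whose levels parted between types, and Mgme1, the partner farthest from Polg2 in the EC to MG difference, are shown with the ETS or YY1 letters in capitals. Polg2 is chr11:106779488-106779787 (minus), Polg is chr7:79466224-79466523 (minus) and Mgme1 is chr2:144270654-144270953 (plus). A match of letters describes the sequence and nothing more.
Polg2: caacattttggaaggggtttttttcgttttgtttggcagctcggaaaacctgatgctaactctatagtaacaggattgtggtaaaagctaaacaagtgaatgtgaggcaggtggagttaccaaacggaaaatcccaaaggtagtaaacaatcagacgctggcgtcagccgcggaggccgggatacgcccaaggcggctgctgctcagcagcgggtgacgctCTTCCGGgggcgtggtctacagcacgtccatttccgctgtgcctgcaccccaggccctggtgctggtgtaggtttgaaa
Polg: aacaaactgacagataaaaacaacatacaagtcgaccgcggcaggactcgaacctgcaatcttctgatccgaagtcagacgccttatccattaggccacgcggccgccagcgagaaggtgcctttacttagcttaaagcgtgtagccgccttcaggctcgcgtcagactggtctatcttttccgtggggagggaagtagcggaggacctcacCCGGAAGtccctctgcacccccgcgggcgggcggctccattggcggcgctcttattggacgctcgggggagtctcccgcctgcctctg
Mgme1: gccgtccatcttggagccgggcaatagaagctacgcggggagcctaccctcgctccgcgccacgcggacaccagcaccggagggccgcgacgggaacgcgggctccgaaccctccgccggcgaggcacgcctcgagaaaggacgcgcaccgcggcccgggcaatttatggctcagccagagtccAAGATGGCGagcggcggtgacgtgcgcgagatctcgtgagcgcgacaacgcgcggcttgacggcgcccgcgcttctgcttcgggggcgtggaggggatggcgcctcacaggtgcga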

How the data were processed

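The authors made the deposited matrices of raw UMI counts with Cell Ranger 7.0.0 on mm10 with human NOTCH3 added, 1 library per mouse. Of 66658 barcodes, 61625 were kept, by a minimum of 500 genes and a maximum of 10% of UMIs from mitochondrial genes. A cell took the marker class with the highest score if at least 3 of its markers were present and the next class scored at most 0.67 of it, a margin chosen after cell counts were seen. This left out 4067 cells (6.60%), 3586 of them for a close second class, and put 1556 in other classes. No doublet caller was run, and cells with markers of 2 classes fell out here. Cells near the gate were 1040 EC, 178 SMC, 87 PC and 184 MG. Median UMIs per cell were 4860 in EC, 7819.5 in SMC, 3060 in PC and 4982.5 in MG. Library totals ran from 17550806 to 64215050, so precision is lowest in PC.

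UMIs were summed per mouse and type, and tested over all genes with edgeR 4.0.16 (TMM, its filter on low counts, quasi-likelihood, Benjamini-Hochberg adjustment) in R 4.3.3, with mouse as a block between types and without covariates between genotypes. DESeq2 1.42.0 was the other tool. The fits held no Rpl, Rps, mt-, Gm or Rik genes, while CPM used all UMIs. The number of mice with the higher level was read from CPM. Shares were compared with 2-sided exact permutation tests over mice, and correlations of log2 CPM (prior count 2) with 100000 permutations, with the jackknife standard error over mice as their spread, in scipy 1.17.1 under Python 3.11.15. Tables were handled with pandas 2.3.3 and numpy 2.4.6, and figures drawn with matplotlib 3.10.9. The procedure was tested on simulated data, where DESeq2 made more false calls than edgeR, and the bound for them was set after this was seen. Other settings were a stricter and a looser gate, other filters on cells and genes, other scaling, sex or batch as a covariate, replicates as a block and each mouse left out.

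Members and gene lists were chosen with earlier results of these data known. Named genes were the 10 members, Ddx5, Milr1 and Nfe2l3, up to 3 genes each way in each other list by size of change, and the 5 genes most like Polg2. The study's methods left a control sample out of its microglial analysis without naming it, and all 11 libraries were used here.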

Additional observations from a re-analysis of the deposited data

Results flagged for a closer look

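Of 176 groups of mice examined for a value far from the rest of its group, 5 held such a value, and chance gives about 1 in 20 groups. In venous EC of R182C-TgN3, the 6 months replicate 2 mouse had 27.4 CPM of Ssbp1, from 14 UMIs, where the other mice had 42.65 to 45.6. The same mouse had 19.6 CPM of Rnaseh1 in venous EC, from 10 UMIs, where the others had 11.4 to 14.2. Its venous EC had a median of 1176 UMIs per cell, beside 1518 to 8390 in the others of its genotype, and the part of this depth was not tested. In PC of R182C-TgN3, 9 months replicate 3 had 7.39 CPM of Top1mt, which is 3 UMIs in 124 cells, and the others had 0 UMIs in 25 to 67 cells each, so that any count at all would stand apart. WT-TgN3 6 months replicate 2 had 2.45% of its MG UMIs from genes of mitochondrial DNA, beside 1.51% to 1.78% in the other WT-TgN3 mice. WT-TgN3 6 months replicate 3 had 3.83% in PC, beside 3.395% to 3.446%. The cause of these values was not tested. No member went in opposite directions in every mouse of a pair of groups, in 110 pairs examined.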

How the results depend on the processing

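For the cell types and the Nfe2l3 microglia, leaving out a mouse kept 429 of 451 called member tests called and brought 16 of 583 others past the threshold, and the other settings kept 478 of 503 and brought in 39 of 667. None of these called tests changed direction. Genotype and interaction tests, 903 and 1153, stayed uncalled. Settings added after the data were seen were the shared barcodes, scaling by total UMIs, the Polg2 to Polg ratio and the relation to endothelial markers.

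By total UMIs 4 members passed between EC and SMC. Without shared barcodes 1 passed between EC and PC and 2 between arterial and venous EC, and by DESeq2 1 between EC and PC. Without a filter on low counts 3 passed between SMC and PC, 7 between PC and MG and 3 between capillary and fenestrated EC. The calls over all genes rose there too, to 4780, 7909 and 6508 from 3267, 6262 and 5682 with the filter. Under the looser gate 2 passed between SMC and PC and 3 between capillary and fenestrated EC, and under the stricter gate 3 there, 5 between capillary and arterial EC and 4 between capillary and venous EC. Over all settings but a mouse left out, the calls over all genes ran from 3029 to 4780 between SMC and PC. They ran from 5468 to 6508 between capillary and fenestrated EC. Between capillary and arterial EC they ran from 5728 to 7013, and between capillary and venous EC from 3634 to 5118. With the cells of highest UMIs left out 0 passed by edgeR between SMC and PC and between arterial and venous EC. With a mouse left out, counts ranged from 1 to 3 between EC and PC, 0 to 1 between SMC and PC, 1 to 2 between arterial and venous EC and 3 to 5 between capillary and fenestrated EC. In the same order, the calls over all genes in those fits ran from 5088 to 5487, 2839 to 3437, 3996 to 4267 and 5356 to 5574. The median r with partners ranged from −0.305 to 0.233 in EC, and in MG it was −0.0441 without the 2 farthest mice.

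The genotype difference in the PC share of mitochondrial mRNA was 0.414 (p 0.0556) within batches, 0.265 (p 0.114) under the stricter gate, 0.294 (p 0.2165) under the looser, which brought in WT-TgN3 9 months replicate 2, 0.383 (p 0.0619) from 1000 genes, 0.371 (p 0.0714) up to 20% mitochondrial UMIs and 0.417 (p 0.107) without shared barcodes, which took out WT-TgN3 9 months replicate 1, all by exact permutation, and 0.302 to 0.518 with a mouse left out. The difference of the SMC ratio, a description, was 0.70, and 0.399 under the looser gate and 0.385 without the cells of highest UMIs. The cause was not tested.

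Over all genes, genotype calls went from 0 to 1 in capillary EC with replicates as a block; in venous EC from 0 to 1 by DESeq2, 3 without the filter and 1 without R182C-TgN3 6 months replicate 3 or WT-TgN3 6 months replicate 2; and in PC from 1 to 25 without the filter, 4 with batch as a covariate and 7 with the block. For genotype by age they went from 0 to 1 by DESeq2 and 31 without WT-TgN3 9 months replicate 1 in EC, and to 1 and 15 by DESeq2 and without the filter in MG. Nfe2l3 microglia went from 86 to 391 without the filter and 413 under the looser gate. With replicates as a paired block, whose numbers do not pair mice (r −0.188 to 0.0969 in EC and −0.0361 to 0.211 in MG over 5 pairs), 0 members were called by edgeR. Depth limits PC most, where the rarest member had 6 UMIs.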
